A study of Mus musculus with 4 samples.

Results

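The genes described here encode the phagocyte NADPH oxidase and the enzymes that clear its products. They are 5 oxidase genes (Cybb, Cyba, Ncf1, Ncf4 and Rac2), 3 superoxide dismutases (Sod1, Sod2 and Sod3) and catalase (Cat), 9 genes of 23451 with a value. Members were found by matching the transcript named for each array probe to RefSeq, which gave 13 probes. Cyba and Cybb have a pair of probes each, Ncf1 has 3 and each of the other genes has 1. RNA came from bone marrow-derived dendritic cells (BMDCs), antigen-presenting cells grown from femur marrow of male C57BL/6J mice, wild type per the sample titles, with GM-CSF (10 ng/ml) until day 6. The groups were LPS (100 ng/ml) with L-(+)-LA (20 mM), LPS alone, LA alone and medium without stimulation. LPS is a bacterial cell wall component sensed by TLR4, and LA is the labels' abbreviation in a series whose title speaks of lactate. Treatments lasted 4 h. The labels give neither the time in medium nor the pH of the LA cultures. Each group has 1 single-colour (Cy3) array, so no p-value and no spread between cultures can be given, and each difference compares 2 arrays of the same slide.

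The phagocyte oxidase moves electrons from NADPH across the phagosome or plasma membrane onto oxygen and so makes superoxide. Its catalytic core is a membrane pair of proteins, which becomes active when a complex of cytosolic subunits and a Rac GTPase joins it. Superoxide dismutases turn superoxide into hydrogen peroxide, and catalase and peroxidases break that down. In dendritic cells the oxidase also slows the acidification of phagosomes, which preserves antigen for presentation.

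Sod2 had the largest differences of these genes. Its level was 6.38-fold higher with LPS than in medium, and 13.9-fold lower with LPS and LA than with LPS. Cybb was also highest with LPS and lower with LA, at a smaller size, 1.90-fold higher with LPS than in medium and 2.98-fold lower with LPS and LA than with LPS. Sod1 was lower on both arrays with LA, by 1.92-fold against LPS and by 1.74-fold against medium, while Rac2 was higher on both, by 1.46-fold and 1.66-fold. Ncf4 was within 1.14-fold in each of the 5 comparisons made.

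The start regions of Sod2, Sod1, Cybb and Ncf1 are shown because Sod2, Sod1 and Cybb were the lowest members when LA was added to LPS, and the probes of Ncf1 disagreed. They run from 250 bases before to 50 bases after the annotated start, 5′ to 3′ on the strand of the gene, from RefSeq on GRCm38.p6. The window of Sod2 is chr17:13007589-13007888 (plus strand), that of Sod1 chr16:90220512-90220811 (plus strand), that of Cybb chrX:9469275-9469574 (minus strand) and that of Ncf1 chr5:134229576-134229875 (minus strand). Capitals mark matches on either strand to GGGCGG (the GC box), to CCAAT (the box bound by NF-Y), to GAGGAA (the core bound by the myeloid factor PU.1), to TATAAA (the TATA box) and to the kB consensus, the binding pattern of NF-kB. The motifs were chosen after the values were known.
Sod2: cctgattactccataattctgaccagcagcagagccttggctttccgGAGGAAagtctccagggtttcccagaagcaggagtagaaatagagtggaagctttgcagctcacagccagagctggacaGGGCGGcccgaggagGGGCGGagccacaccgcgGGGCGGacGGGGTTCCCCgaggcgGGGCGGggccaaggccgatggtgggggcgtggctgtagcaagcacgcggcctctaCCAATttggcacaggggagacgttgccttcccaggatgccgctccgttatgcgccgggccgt
Sod1: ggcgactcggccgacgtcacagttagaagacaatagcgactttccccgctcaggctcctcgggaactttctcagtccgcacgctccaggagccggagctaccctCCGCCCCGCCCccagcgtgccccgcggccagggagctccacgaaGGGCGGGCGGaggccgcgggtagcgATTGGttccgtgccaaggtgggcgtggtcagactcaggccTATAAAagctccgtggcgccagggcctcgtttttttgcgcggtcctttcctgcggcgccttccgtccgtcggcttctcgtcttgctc
Cybb: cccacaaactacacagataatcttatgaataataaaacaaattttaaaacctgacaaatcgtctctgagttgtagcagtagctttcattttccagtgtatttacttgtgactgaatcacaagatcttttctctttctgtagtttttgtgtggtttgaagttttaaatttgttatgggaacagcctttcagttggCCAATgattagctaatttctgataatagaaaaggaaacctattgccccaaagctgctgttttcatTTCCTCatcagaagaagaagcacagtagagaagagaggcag
Ncf1: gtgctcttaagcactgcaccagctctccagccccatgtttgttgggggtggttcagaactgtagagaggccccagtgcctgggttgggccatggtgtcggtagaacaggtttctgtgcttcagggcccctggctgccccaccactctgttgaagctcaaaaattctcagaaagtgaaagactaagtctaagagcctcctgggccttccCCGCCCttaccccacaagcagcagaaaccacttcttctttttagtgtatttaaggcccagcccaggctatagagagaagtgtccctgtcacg

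RefSeq start regions were at hand for 6 of the 9 genes; those of Ncf4, Rac2 and Sod3 were not used here. The Sod2 window held 4 GC boxes, 1 CCAAT box, 1 PU.1 core and 1 kB position, which matches on both strands and begins 83 bases before the start. The Sod1 window also held 4 GC boxes, in overlapping pairs, with 1 CCAAT box, 1 TATAAA and no kB match. The GC content of these windows was 64.3% for Sod2 and 66.7% for Sod1, against 35.3% for Cybb and 54% for Ncf1. The Cybb window held 1 CCAAT box and 1 PU.1 core, and the Ncf1 window 1 GC box. The Cat window held 1 kB position as well, 116 bases before the start. Cat was lower with LPS where Sod2 was higher, and any part of the kB matches in these values was not tested. Among 32851 such windows, a GC box was found in 35.7%, CCAAT in 37.4%, a PU.1 core in 28.3%, TATAAA in 13.6% and a kB match in 8.46%. A match describes the letters and does not show binding.

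A level is log2 of the processed signal minus log2 of the array's 75th percentile. Feature Extraction's own error estimate for a level was 0.14 to 0.15 log2 units for every member probe above background, or 0.20 to 0.21 for a difference between 2 arrays. It was 10.0% to 10.1% of the signal for each of these probes. It is thus nearly a fixed share of the signal and not a spread seen for each probe. Between spots of the same probe, for those spotted 10 times, the median SD was 0.05. Among the dim ones, with a level below 0, it was 0.21 to 0.26 over the arrays. The error estimate and the SD between spots are errors of the array measurement and leave out culture, animal and labelling. Of the 9 genes, 8 were well above background on all 4 arrays, and Sod3 was above it on none. Levels of different genes are not compared, because probes differ in how well they bind.

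**Figure D1:**
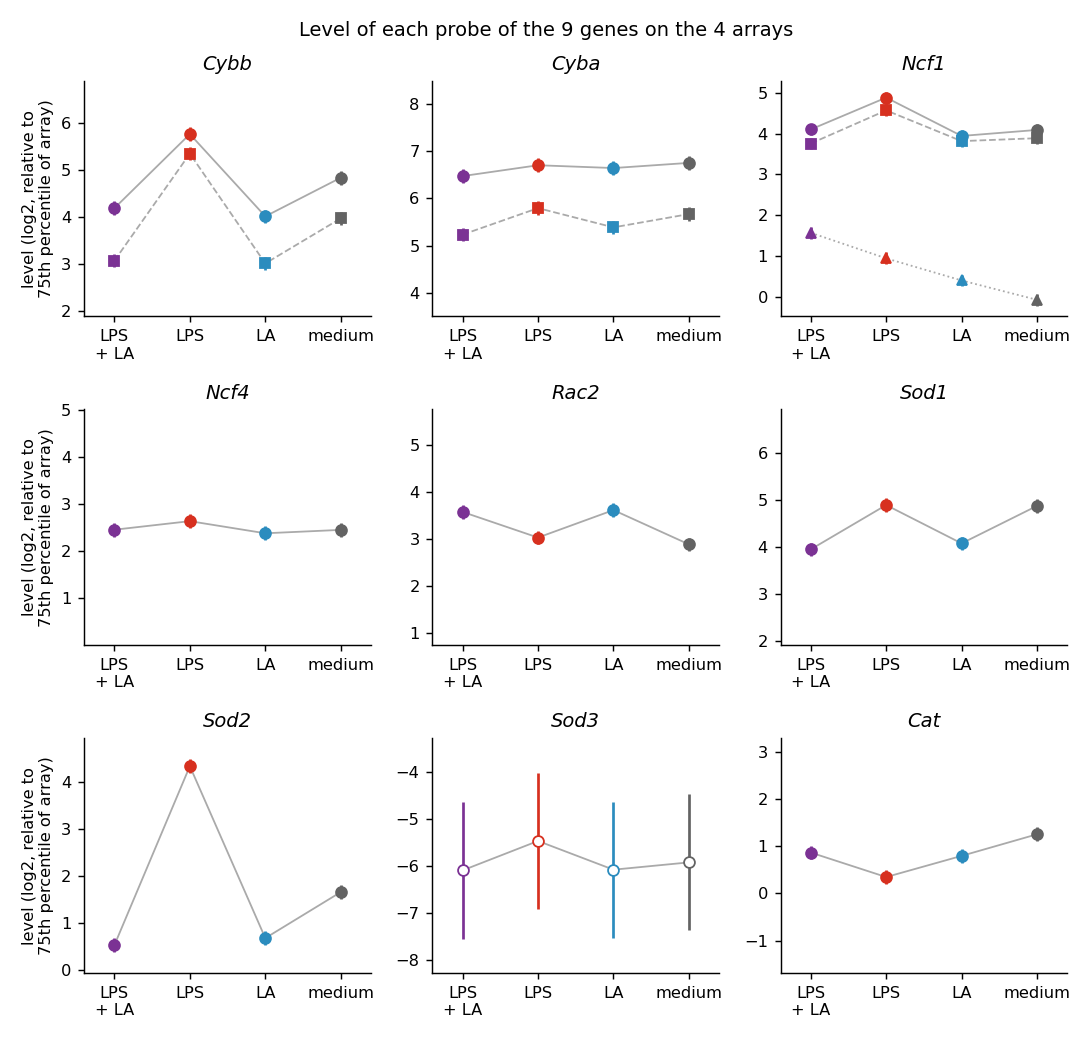
Levels of all 13 probes (y axes, log2 signal relative to the array's 75th percentile, each panel with its own range) on the LPS + LA, LPS, LA and medium arrays (x axes), with circles for the brightest probe, squares and triangles for other probes, open symbols for probes not well above background and bars for Feature Extraction's error estimate. The Sod2 point on the LPS array, at 4.34, lies above its other arrays at 0.53 to 1.66, and the lowest Ncf1 line does not follow the upper lines.

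Cybb encodes the catalytic membrane subunit that carries the electrons, also called Nox2. Its brighter probe had levels of 4.19 with LPS and LA, 5.76 with LPS, 4.01 with LA and 4.83 in medium. The dimmer probe had 3.07, 5.34, 3.01 and 3.97 in the same order. On both probes the LPS array was highest, medium came next, and the LA arrays lay lowest and within 0.17 of each other, less than the error estimate. The LPS and LA array lay 1.57 below the LPS array by the brighter probe and 2.27 below it by the dimmer one. LPS alone lay 0.93 and 1.37 above medium on these probes, so the 2-fold mark of 1 log2 unit was passed by the dimmer probe only.

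Cyba encodes the small membrane partner that stabilises Cybb. Its levels were 6.47 with LPS and LA, 6.70 with LPS, 6.65 with LA and 6.75 in medium. The other probe had 5.23, 5.79, 5.39 and 5.67 in the same order. The LPS and LA array was the lowest on both probes, at 0.23 and 0.56 below LPS. The direction of the first of these values depends on the processing, with a range of -0.40 to 0.28.

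Ncf1 encodes the organizer subunit that brings the cytosolic complex to the membrane. The brightest probe had levels of 4.11 with LPS and LA, 4.89 with LPS, 3.95 with LA and 4.09 in medium, and the next probe had 3.76, 4.58, 3.82 and 3.89. The LPS array stood above the other 3 on both, by 0.79 and 0.68 against medium, while the other 3 lay within 0.16 of each other. The LPS and LA array was 0.78 and 0.81 below LPS on these probes. The third probe, designed on an Ncf1 transcript that RefSeq lists as non-coding, behaved otherwise, with levels of 1.57 with LPS and LA, 0.94 with LPS, 0.40 with LA and -0.08 in medium. It was highest with both agents together, 3.13-fold above medium and 2.25-fold above LA alone, and its LPS and LA array lay 0.63 above LPS.

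Ncf4 encodes a cytosolic subunit that binds a phagosomal lipid. Its levels were 2.45 with LPS and LA, 2.63 with LPS, 2.37 with LA and 2.45 in medium. In the 5 comparisons none of its differences exceeded 0.19, which is under the error estimate.

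Rac2 encodes the Rac GTPase of blood cells that activates the assembled oxidase. It stood at 3.57 with LPS and LA, 3.03 with LPS, 3.61 with LA and 2.88 in medium. The arrays with LA were within 0.04 of each other and above both arrays without it, by 0.55 against LPS and by 0.73 for LA alone against medium. LPS alone lay 0.14 above medium, a difference within the error estimate whose sign turned with the scaling.

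Sod1 encodes the copper and zinc dismutase of the cytosol. Its levels were 3.95 with LPS and LA, 4.89 with LPS, 4.08 with LA and 4.87 in medium. The arrays fell into a lower pair with LA and a higher pair without it, each pair within 0.13. The LPS and LA array was 0.94 below LPS and 0.92 below medium, and LA alone was 0.80 below medium. Under all 7 alternatives to the processing these 3 differences stayed below 0. They lay between -1.05 and -0.34 for the first, -0.97 and -0.65 for the second and -0.86 and -0.57 for the third. Leaving out the filter or averaging all probes could not change them, as Sod1 has a single probe, above background on every array.

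Sod2 encodes the manganese dismutase of mitochondria, a textbook target of NF-kB. Its processed signal was 208 with LPS and LA, 3466 with LPS, 251 with LA and 556 in medium, which gave levels of 0.53, 4.34, 0.68 and 1.66. The LPS array was far above the other 3, and both arrays with LA were below medium. The LPS and LA array lay 3.80 below LPS, 1.13 below medium and 0.15 below LA alone, the last within the error estimate. LA alone lay 0.98 below medium, just short of 2-fold. Sod2 has a single matched probe, so no other probe checks these values.

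Sod3 encodes the secreted dismutase of the extracellular space. Its processed signal was 2.11 with LPS and LA, 3.89 with LPS, 2.32 with LA and 2.91 in medium, not well above background on any array. No fold is given for it.

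Cat encodes catalase, the peroxisomal enzyme that splits hydrogen peroxide. Its levels were 0.87 with LPS and LA, 0.35 with LPS, 0.80 with LA and 1.26 in medium. The LPS array was lowest here, where it was highest for Sod2, and medium was highest. LPS alone was 0.91 below medium (-1.14 to -0.75 over the ways of processing), and the LPS and LA array was 0.52 above LPS and 0.39 below medium. LA alone was 0.46 below medium and within 0.07 of LPS with LA.

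LPS with LA was set against LPS to describe what LA does to the LPS response. Of the 8 measured members, 2 were at least 2-fold lower (Sod2 and Cybb) and 0 higher, where 12.4% of 13636 measured genes were lower and 11.5% higher. Of all genes, 80 lay lower than Sod2 in this comparison and 825 lower than Cybb. The members had a median of -0.51, against 0.01 for all genes, and ranged from Sod2 to Rac2. Differences of Cyba and Ncf4 changed sign with the scaling, and those of the other 6 members did not.

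LPS alone was set against medium for the LPS response itself. It shares the LPS array with the comparison above, with opposite sign. Mirrored values in both are therefore no separate evidence, here and for the gene lists below. Sod2 was the 1 member of 8 at least 2-fold higher, where 8.07% of 13597 genes were, and 0 were lower, where 7.6% of genes were. Of all genes, 154 lay higher than Sod2, 1218 higher than Cybb and 1509 higher than Ncf1. At the other end, 1271 genes lay lower than Cat. The median of the members was 0.16, against 0.00 for all genes. Cyba, Ncf4, Rac2 and Sod1 were within 0.19 of medium and changed sign with the scaling.

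LA alone against medium gave 0 of 8 members at least 2-fold higher or lower, where 3.06% of 14557 genes were higher and 3.39% lower. By the processing used, 7 members lay below 0, and the members' median was -0.30 (all genes 0.02). Cyba (-0.20 to 0.10), Ncf1 (-0.21 to 0.09) and Ncf4 (-0.14 to 0.08) changed sign over the ways of processing. Sod2 (-0.98), Cybb (-0.82) and Sod1 (-0.80) were lowest, with 524, 819 and 869 genes lower than them. Rac2 at 0.73 was the member above 0, with 1036 genes higher. With LPS and LA against medium, Sod2 was the 1 member of 8 at least 2-fold lower and 0 were higher, where 3.99% of 14523 genes were lower and 2.96% higher. Sod1 (-0.92) and Cybb (-0.65) came next, and Rac2 (0.69) was again highest. These comparisons share the medium array, so their likeness is no separate evidence.

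**Figure D2:**
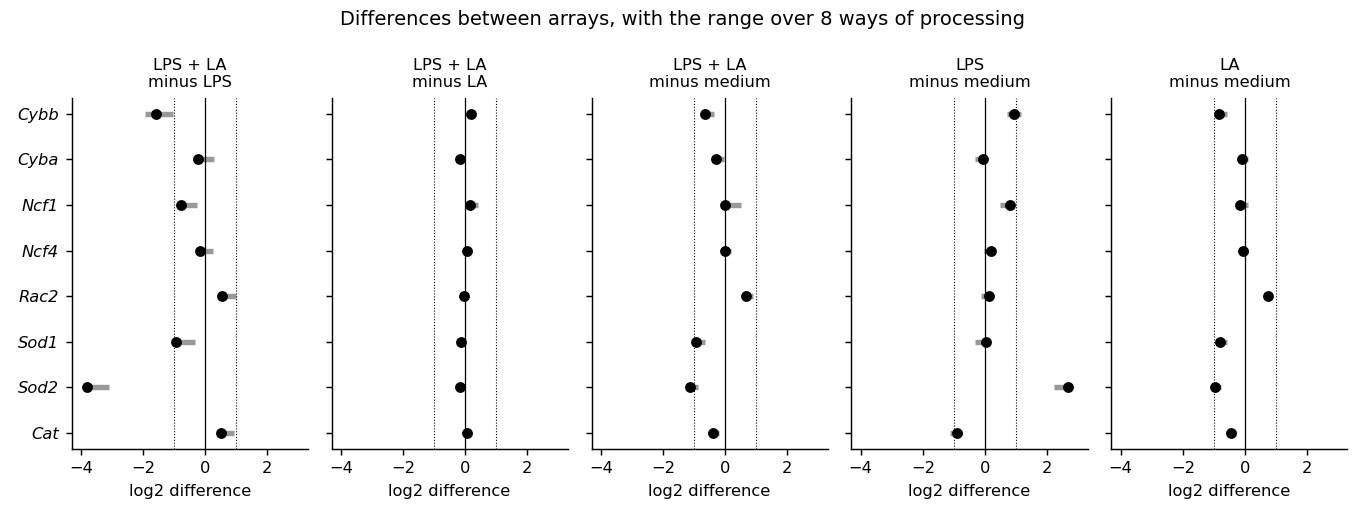
Log2 differences (x axes) of the 8 measured genes in the 5 comparisons (panels), with dots for the processing used in the text, grey bars for the range over 8 ways of processing and dotted lines at 2-fold. In LPS + LA minus LA every dot lies within 0.17 of 0, while Sod2 lies at -3.80 in LPS + LA minus LPS and at 2.67 in LPS minus medium.

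LPS with LA was set against LA to read the LPS response in the presence of LA. Here 0 of 8 members were at least 2-fold higher or lower, where 0.912% of 14906 genes were higher and 1.48% lower. By their brightest probes all 8 lay between -0.17 (Cyba) and 0.17 (Cybb), within the error estimate of a difference. The third Ncf1 probe lay at 1.17, and Ncf1 reached 0.42 over the ways of processing. Sod2, at 2.67 for LPS against medium, lay at -0.15 in this comparison. Taking the LA effect among LPS arrays and subtracting the LA effect among arrays without LPS gave -2.82 for Sod2, -0.75 for Cybb, -0.63 for Ncf1 and 0.98 for Cat, and between -0.18 and -0.11 for the other 4 members, whose signs turned with the scaling. By this measure 1 of 8 members passed 2-fold below 0 and 0 above it, where 9.59% and 9.06% of 13373 genes did. Over the 7 alternatives the Sod2 value lay between -2.87 and -2.31, the last with normexp. As no array was repeated, these differences of differences were not tested.

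**Figure D3:**
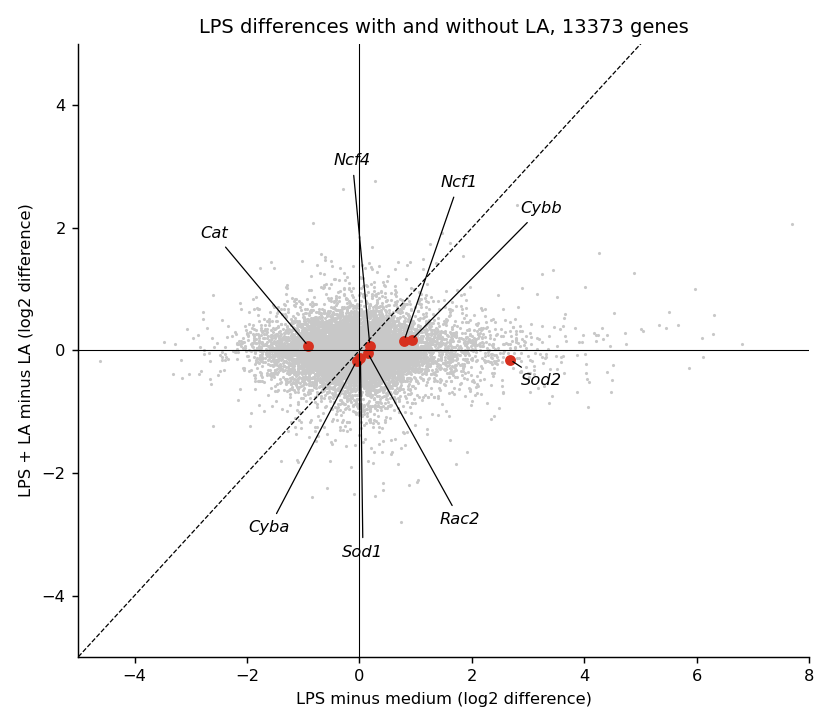
Difference of LPS minus medium (x axis, log2) against that of LPS + LA minus LA (y axis, log2) for 13373 genes above background on all 4 arrays (grey) and the 8 measured members (red), with a dashed line where both would be equal. Sod2 lies far to the right at 2.67 but at -0.15 on the y axis. By their brightest probes, all members lie within 0.17 of 0 on the y axis.

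Of 12 other partners and regulators of the oxidase, 1 was at least 2-fold lower and 0 higher with LPS and LA against LPS (median 0.22), where 12.4% of all measured genes were lower and 11.5% higher. In LPS against medium 0 were 2-fold apart (median -0.20), where 8.07% of genes were higher and 7.6% lower. Over the ways of processing, 0 to 5 were higher and 0 to 1 lower in the first comparison, and 0 higher and 0 to 1 lower in the second. The proton channel gene Hvcn1, which balances the oxidase's charge, lay at 0.88 with LPS and LA against LPS and at -0.70 with LPS against medium. Cybc1, a chaperone of the membrane pair, lay at 0.71 and -0.57 in these comparisons. The kinase gene Lyn was the 1 lower gene at -1.23, and it led the list with LPS at 0.78, ahead of Nrros, which promotes loss of Cybb protein (0.56). Rap1a, a GTPase found with the membrane pair, was second lowest with LPS and LA against LPS at -0.24.

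Few other NADPH oxidases were measured. Of the 9 genes listed, 8 have a probe, and Nox1, Nox3, Nox4 and the dual oxidase factor Duoxa2 were not well above background on any array. Noxa1 and Duoxa1 were measured on all 4 arrays, and both were within 0.33 in every comparison. Noxo1, the organizer of Nox1, was above background on all arrays but LPS. It was at least 3.85-fold higher with LPS and LA than with LPS and at least 2.43-fold lower with LPS than in medium.

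By their brightest probes, the 8 measured genes of NADPH supply lay below medium with LPS and above LPS when LA was added. Most of these differences were less than 2-fold, and Me1 was above background on no array. Both comparisons use the same LPS array, so the mirrored directions are no separate evidence. In LPS with LA against LPS, 11.5% of all measured genes were at least 2-fold higher and 12.4% lower. Of the 8 NADPH supply genes, 1 was higher and 0 lower, and the median was 0.68. That count was between 1 and 6 over the ways of processing. With LPS against medium, 7.6% of all genes were lower and 8.07% higher. Of the NADPH supply genes, 1 of 8 was lower and 0 higher, and the median was -0.43. Over the ways of processing that median lay between -0.72 and -0.36 and 1 to 2 genes were lower. Idh1, the cytosolic isocitrate dehydrogenase, was the gene past 2-fold in both, at 2.39 and -2.45, with its other probe at 2.23 and -2.02. G6pdx, the entry enzyme of the pentose phosphate pathway, lay just short of 2-fold higher in the first comparison and at -0.56 in the second. Pgd, the next NADPH-producing step, lay at 0.64 and -0.95. Idh2 and Nadk were nearest to medium with LPS at -0.25 and -0.21. Idh2 and Tkt were lowest with LPS and LA against LPS at 0.16 and 0.51, and the other Idh2 probe lay at -0.19.

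Peroxide-removing genes beside Cat were mixed. Adding LA to LPS gave 4 of 15 measured genes at least 2-fold lower than with LPS and 0 higher. The shares of all genes were 12.4% lower and 11.5% higher. The median of the 15 genes was -0.47. Over the ways of processing the median lay between -0.58 and -0.05 and the count of lower genes between 1 and 4. These were the thioredoxin reductase gene Txnrd1 (-1.89) and the peroxiredoxins Prdx5 (-1.41), Prdx4 (-1.32) and Prdx1 (-1.22). The other probes of Prdx1 lay at -1.61 and -1.44. The mitochondrial thioredoxin Txn2 (0.58) and the secreted peroxidase Gpx3 (0.16) were highest, and Txnrd2 was at least 2.02-fold higher. With LPS against medium, Prdx5 (1.05) was the 1 higher gene, followed by Glrx (0.75). Srxn1, which repairs peroxiredoxins, was the 1 lower gene (-1.02), followed by Gpx4 (-0.51). Both counts were 0 to 1 over the ways of processing. Of all genes, 8.07% were higher and 7.6% lower in that comparison. With LA against medium, Srxn1 (-1.66) and Txnrd1 (-1.29) were the 2 of 16 genes at least 2-fold lower, where 3.39% of all genes were.

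Copper delivery to Sod1 and Sod3 rests on a few genes. Ccs, the copper chaperone of Sod1, lay at -0.18 with LPS and LA against LPS and at 0.00 with LPS against medium. Its other, dimmer probe lay at 0.41 and -0.91, so the probes disagreed. The cytosolic copper carrier Atox1 lay at -0.07 and -0.06 in these comparisons. The copper importer Slc31a1 lay at -1.38 and 0.84. Atp7a, the pump that supplies secreted copper enzymes, lay at -0.88 and -0.16, and at -1.41 for LA against medium. Its other probe lay at -1.23, 0.09 and -0.77 in the same order.

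Among peroxisome genes, which share the compartment of Cat, 2 of 11 measured were at least 2-fold lower with LPS and LA against LPS, the import factor Pex13 (-1.29) and the thiolase Acaa1a (-1.25). In LPS against medium, Acaa1a was the 1 gene of 11 at least 2-fold higher (1.21), followed by Pex13 (0.57). Over the ways of processing 0 to 2 were lower in the first comparison and 0 to 1 higher in the second. Of all genes, 12.4% were at least 2-fold lower in the first and 8.07% higher in the second. Hacl1 was at least 2.85-fold higher in the first comparison and at least 3.71-fold lower in the second.

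Targets and feedback genes of NF-kB were mostly highest with LPS, as Sod2 was. Adding LA to LPS left 11 of 11 at least 2-fold lower than LPS alone (median -2.71), from Tnfaip3 (-5.80) and Tnip3 (-4.15) to Nfkb1 (-1.81) and Relb (-1.58). With LPS against medium, 10 of 11 were at least 2-fold higher (median 1.91), from Tnfaip3 (3.64) and Icam1 (3.24) to Tnip3 (1.08), and Relb lay at 0.70. Between the arrays with LA, 0 of 11 were 2-fold apart (median 0.18), where 0.912% of all genes were higher and 1.48% lower. Of all genes, 12.4% were at least 2-fold lower when LA was added to LPS, and 8.07% higher with LPS against medium. This list was chosen with such values known, and Sod2 is not in it.

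**Figure D4:**
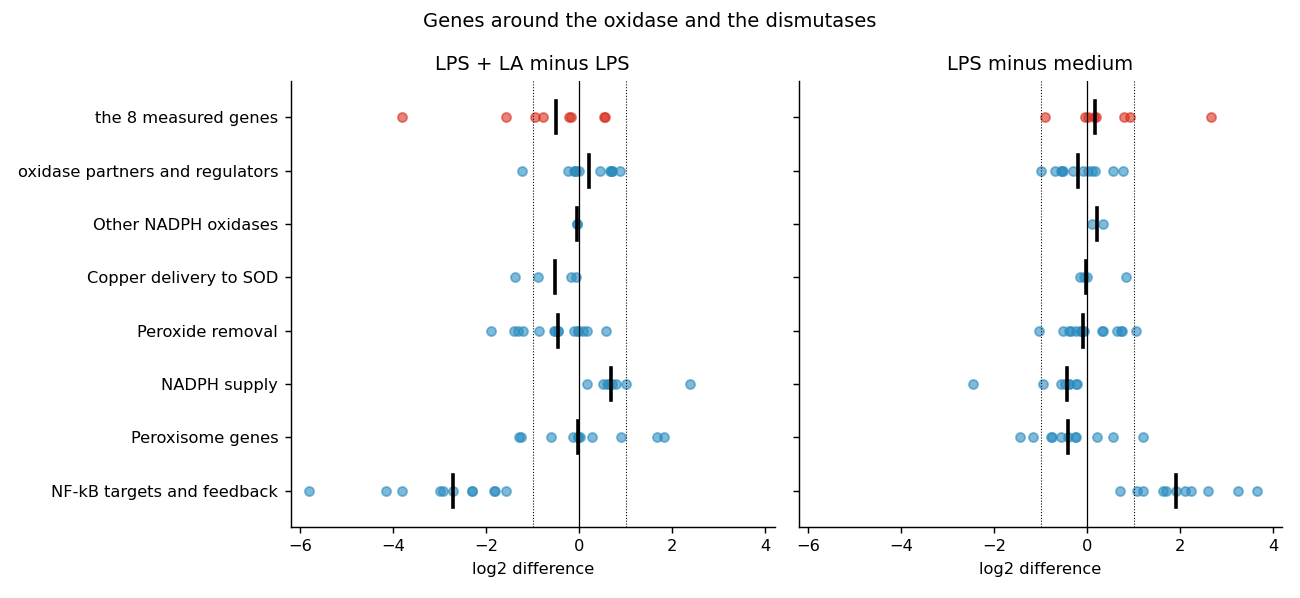
Log2 differences (x axes) of the 8 measured members (red) and of the measured genes of 7 related lists (blue), 1 dot per gene, with black bars at list medians and dotted lines at 2-fold, for LPS + LA minus LPS (left) and LPS minus medium (right). The NADPH supply genes lie right of 0 in the left panel and left of 0 in the right panel, opposite to the NF-kB genes. Both panels use the same LPS array, with opposite sign.

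Few genes resembled Sod2 over the 3 differences from medium. Among 13372 other genes above background on all arrays, 15 lay within a Euclidean distance of 0.5 log2 units from Sod2, against 250 for Cybb. The nearest to Sod2 were Xaf1 (distance 0.16), an interferon-induced gene, Kpna3 (0.24), a nuclear import factor, and Slfn5 (0.28), a Schlafen family gene. The nearest to Cybb were LOC547349 (0.11), Syt13 (0.13) and Tpm4 (0.14). With 4 arrays this is a description of these arrays only.

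Neutrophils also express the phagocyte oxidase strongly, so cell type markers were read on the same arrays. Neutrophil and precursor markers were well above background in 16 of 16 on all 4 arrays, and their summed level (log2) was 10.02 with LPS and LA, 9.82 with LPS, 9.96 with LA and 9.58 in medium. With both agents against LPS, 9 of these 16 reached 2-fold higher and 0 lower (median 1.11), and 1 was higher and 0 lower with LA against medium (median 0.64). Over the ways of processing, 8 to 11 were higher in the first comparison and 1 to 5 in the second. Of all genes, 11.5% were higher and 12.4% lower in the first, and 3.06% and 3.39% in the second. A summed level follows its brightest probes most. With LPS against medium the sum of these 16 was higher, but their median was -0.22. Of the 16, 1 was at least 2-fold higher and 2 lower, where 8.07% and 7.6% of all genes were. In bulk RNA more cells of a type and more RNA per cell cannot be told apart. The part of these markers in the Rac2 or Cybb values was not tested. Dendritic cell markers were above background in 11 of 12 on all arrays, with Xcr1 above it on none, and their summed level was 7.71, 8.32, 7.78 and 8.15 in the same order of groups. Of 11 measured, LA with LPS against LPS had 5 lower, 2 higher and 4 neither, but over the ways of processing 0 to 6 were lower and 0 to 4 higher. Macrophage and monocyte markers were above background in 11 of 12 on all arrays, with summed levels of 6.81, 7.54, 6.90 and 7.13, highest with LPS and next in medium as for Cybb; 3 of 11 were lower and 1 higher in that comparison, with 2 to 4 lower and 1 to 2 higher over the ways of processing. With LPS against medium the median of these markers was -0.03, with 2 of 11 at least 2-fold higher and 2 lower. Their part in the Cybb values was not tested either. Mast cell, basophil and eosinophil markers had summed levels of 6.75, 6.36, 6.67 and 5.71, and fibroblast, stroma and endothelium markers had 1.65, 1.47, 1.27 and 1.37, with Cdh5 above background on no array. Lymphocyte markers had 1.04, 0.94, 1.25 and 1.07, with Ms4a1 and Ncr1 above background on no array, and erythroid markers had 0.79, 0.84, 0.88 and 0.71.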

How the data were processed

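The authors deposited 1 scanner file per array with a linear, background-subtracted intensity for each spot, not scaled between arrays, made with Feature Extraction 12.0.3.1 per the file headers (11.5.1.1 per the submitters' processing notes). They also deposited a table of 31529 intensities, each the processed signal multiplied by a constant of its array (9.30 for LPS with LA, 5.82 for LPS, 8.38 for LA, 6.67 for medium); its values are linear and not centred, with medians of 1189, 873, 1164 and 1038. Of 59305 spots that were not controls, 56.5% to 64.1% were well above background; 129 to 154 spots per array marked as outliers were left out, 0 were saturated and median background was 23 to 24. All arrays were on 1 slide with 1 scan time, so neither separates the groups. The number of arrays limits the precision.

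Levels were log2 intensities minus that of the array's 75th percentile, spots of a probe were averaged, and a gene took its brightest probe. Of 56605 probes, 33767 matched 1 symbol by transcript in RefSeq GRCm38.p6 (the array headers name mm9), 0 several and 22838 none. Measured genes had a probe well above background on each array compared (all 4 for the difference of differences), and the mark was 2-fold. A gene above background on 1 array has a bound: its level is set against the dim array's lowest well-above-background signal, or its own dim signal where that is higher. With 1 array per group there was no test. The calculation of the differences was checked on simulated data. That tests the arithmetic only, not the scaling or the variation between cultures.

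The members, the 7 pathway lists, the 7 marker lists and the motifs were chosen with earlier results of these data known. By the rule for named genes the text names all members, the 2 highest and 2 lowest genes and those at least 2-fold apart of each pathway list for LPS with LA against LPS and LPS against medium, and the 3 nearest genes of members past 2-fold; other named list genes were picked after their values were seen, and some genes the rule selects are not reported here. Alternatives were median scaling, the 75th percentile over detected probes (above background on every array), quantile normalization, normexp (offset 50) on the median spot signal, the authors' table, no filter on dim probes and the mean of all probes. Python 3.11.15 with numpy 2.4.6 and pandas 2.3.3, and R 4.3.3 with limma 3.58.1, were used.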

Additional observations from a re-analysis of the deposited data

Results flagged for a closer look

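Among the members, 4 genes had effects of opposite sign under the same contrast, read with and without the other agent. The differences of these effects were not tested, since each rests on 4 single arrays. For Sod2 the LPS effect was -0.15 with LA and 2.67 without it, a difference of -2.82. For Cat the LPS effect was 0.07 with LA and -0.91 without it, and the LA effect was 0.52 with LPS and -0.46 without it, a difference of 0.98 either way. For Rac2 the LPS effect was -0.04 with LA and 0.14 without it, a difference of -0.18. For Sod1 it was -0.13 and 0.02, a difference of -0.14. The Rac2 and Sod1 effects are within the error estimate of a difference between arrays, and their LPS effects without LA changed sign with the scaling.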

How the results depend on the processing

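With no repeated array, leaving out a replicate was not possible. No paired analysis was possible because each group has 1 array. Of 42 counts of members at least 2-fold apart under 7 alternatives, 32 stayed within 1.5 times the count given and 10 did not. Within that limit, the count for LPS and LA against LPS was 3 with median scaling (Sod1 added, lower), against 2. It was also 3 with quantile normalization (Rac2 added, higher). With LPS and LA against medium the count was 0 with normexp and in the authors' table, against 1. With LPS against medium it was 2 with the percentile over detected probes and in the authors' table (Cat added), and 2 with the mean of all probes (Cybb added), against 1. With LA against medium it was 1 with median scaling (Sod2), against 0. For the difference of differences it was 2 with that percentile, quantile normalization and the authors' table (Cat added) and 2 with the mean of all probes (Cybb added), against 1. No member past 2-fold changed sign, and 32 of 48 member differences kept their sign throughout. Leaving out the filter could not change the value of a measured member, as these were above background on every array. The mean of all probes could not change a gene with a single probe. Scalings moved the median of all genes to between -0.11 and 0.43 for LPS and LA against LPS, and between -0.24 and 0.06 for LPS against medium. Relative to all genes, Sod2 lay between -3.82 and -3.15 in the first and between 2.26 and 2.69 in the second. Of all genes 2-fold apart in the first, 48.2% were higher, and 76.7% in the authors' table. Sod3 is too dim to compare.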
